A study of Homo sapiens with 2 samples.

Results

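MHC class I and peptide loading genes were followed in RNA of extracellular vesicles, small membrane particles shed by cells. The 9 genes were chosen by symbol: the class I heavy chain genes HLA-B, HLA-C and HLA-E, the light chain gene B2M, the peptide transporter genes TAP1 and TAP2, the immunoproteasome genes PSMB8 and PSMB9, and PSMB8-AS1, a non-coding RNA of the strand opposite PSMB8. Of the 9 genes, 7 had a value among the 14467 genes measured, and TAP2 and PSMB9 had no row. In GENCODE 29, 23.4% of all 58780 annotated genes had a value. Of the 8 protein-coding genes among the 9, 6 had a value, beside 42.2% of the 19969 annotated protein-coding genes. The vesicles came from LAD2, an established human mast cell line, grown in SP34 medium with its nutrient supplement and stem cell factor under 5% CO2 at 37 °C, and were collected on day 4 of culture. Total RNA was sequenced in 2 libraries, replicates 1 and 2, which form 1 group with no control, so no comparison of conditions and no test were possible. Separate cultures are not mentioned for the replicates, and their spread may be purely technical. Vesicle RNA of a cell line is a bulk sample, in which fewer vesicles carrying an RNA and less of it per vesicle cannot be told apart.

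MHC class I molecules carry peptides of a cell's own proteins to its surface, where CD8 T cells and natural killer cells read them. The proteasome cuts proteins into peptides, and its inducible subunits PSMB8 and PSMB9 replace constitutive ones in the immunoproteasome. The transporter made of TAP1 and TAP2 moves peptides into the endoplasmic reticulum, where a heavy chain paired with beta-2-microglobulin, the product of B2M, is loaded. Interferons raise the transcription of these genes in many cell types, and mast cells carry class I molecules as most nucleated cells do.

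Values are the deposited log2 values, and a mean is given with the SD of the 2 libraries (n = 2). The values are shrunken: over all genes the spread between the libraries was 0.0109 log2 units for means up to 2 and 0.149 for means between 6 and 8, so the SD of a low gene understates its error. A linear value is 2 to the power of the log2 value, in the authors' normalized units and not in reads. Detected means a linear value of at least 10 in both libraries. The sources used here give neither read depth nor the strand setting of the counting, nor whether the library kit kept the strand of the RNA. Which strand's RNA a value measures is therefore uncertain for every gene, including B2M, HLA-C and HLA-E, whose exons face no other gene. Each gene is given beside the gene that faces it, where there is one.

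The heavy chain genes are close relatives, and their exon 2 codes for a part of the peptide groove. Its reference sequences (GENCODE 29 transcripts, GRCh38, each on the strand of its gene) are shown because they hold both the likeness between the heavy chain genes and the stretch that HLA-B shares with the gene opposite to it. Capitals mark the bases that differ from HLA-B.
HLA-B, chr6:31356688-31356957, minus strand: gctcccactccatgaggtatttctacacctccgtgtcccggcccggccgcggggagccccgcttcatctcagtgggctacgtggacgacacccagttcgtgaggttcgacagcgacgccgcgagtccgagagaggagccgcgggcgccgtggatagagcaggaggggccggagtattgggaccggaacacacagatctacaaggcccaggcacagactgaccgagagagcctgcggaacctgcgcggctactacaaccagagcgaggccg
HLA-C, chr6:31271599-31271868, minus strand: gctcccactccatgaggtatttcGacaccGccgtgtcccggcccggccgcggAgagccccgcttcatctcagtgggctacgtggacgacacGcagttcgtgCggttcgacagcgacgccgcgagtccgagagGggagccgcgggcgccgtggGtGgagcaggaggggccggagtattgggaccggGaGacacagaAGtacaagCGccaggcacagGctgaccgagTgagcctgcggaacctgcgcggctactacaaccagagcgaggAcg
HLA-E, chr6:30489726-30489995, plus strand: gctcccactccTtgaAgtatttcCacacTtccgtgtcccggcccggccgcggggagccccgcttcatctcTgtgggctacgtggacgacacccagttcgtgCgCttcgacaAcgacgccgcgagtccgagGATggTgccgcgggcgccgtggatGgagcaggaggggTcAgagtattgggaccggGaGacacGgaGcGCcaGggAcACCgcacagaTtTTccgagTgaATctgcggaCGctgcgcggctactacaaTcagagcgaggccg
Against HLA-B, the exon differed at 17 of 270 bases in HLA-C and at 35 in HLA-E. The longest run without a difference was 41 bases in each. All 270 bases of the HLA-B exon lie inside ENSG00000271581 on the other strand, whereas no base of the HLA-C or HLA-E exon faces another gene. The reference carries 1 allele of each gene, and the alleles of LAD2 were not used here.

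Over all annotated exons of HLA-B, 2.72% of the 50-base words also occur on the same strand of another gene, and HLA-C holds most of these. The share was 5.38% for HLA-C and 4.34% for HLA-E. The sources used here do not say how reads matching several of these genes were counted, so a part of each heavy chain value may belong to a relative.

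The 3 heavy chain genes, HLA-C (chromosome 6, 31268749 to 31272130, minus strand), HLA-B beside it and HLA-E (30489467 to 30494205, plus strand), had middling values. HLA-C, which presents peptides and is a ligand of natural killer cell receptors, had 4.44 in replicate 1 and 4.48 in replicate 2, a mean of 4.46 ± 0.03, above 69.5% of the 14467 genes. HLA-E, a little-varying heavy chain that natural killer cells read through CD94 and NKG2 receptors, had 3.87 and 3.94, a mean of 3.91 ± 0.05. HLA-B, a highly variable presenter of peptides to CD8 T cells, had 3.42 and 3.41, a mean of 3.41 ± 0.01, above 55.3% of genes. On the deposited scale, which is not divided by length, both libraries gave the order HLA-C, HLA-E, HLA-B, and the values did not overlap. The linear values of HLA-B, 10.7 and 10.6, lay just above the detection threshold, while those of HLA-C were 21.7 and 22.3.

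B2M, the light chain shared by all class I molecules, was close to the floor of the data. It had 0.23 in both libraries, a mean of 0.23 ± 0.01, which corresponds to linear values of 1.17 and 1.18. Only 7.15% of genes had a lower mean, and 464 other genes had the same pair of values, a low step that many genes share. B2M lies on chromosome 15 (44711487 to 44718877, plus strand), away from the class I region on chromosome 6, has no facing gene in its exons, and holds no 50-base word of another gene on either strand. Whether the counting took in RNA of the B2M strand was not tested, so the low value cannot be read as a lack of B2M RNA.

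TAP1, a chain of the peptide transporter, had the highest deposited value of the genes, with 7.48 in replicate 1 and 7.27 in replicate 2. The mean of 7.38 ± 0.15 was above 89.6% of genes, and the linear values were 179 and 154. Its partner chain TAP2 (chromosome 6, 32821833 to 32838780, minus strand) had no row. TAP1 occupies chromosome 6 from 32845209 to 32853978 on the minus strand, and its exons share 456 bases, 9.49% of their length, with PSMB8-AS1 on the plus strand. The genes with a pair of values nearest to that of TAP1 were ZNF451-AS1, LBHD1 and FAM177A1, at Euclidean distances of 0.00977, 0.0149 and 0.0212 over the 2 libraries.

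PSMB8-AS1 stood beside TAP1, with 7.26 in replicate 1 and 7.36 in replicate 2, a mean of 7.31 ± 0.08 above 89.2% of genes. It is annotated as a long intergenic non-coding RNA on chromosome 6 from 32844086 to 32846495, plus strand. PSMB8, the inducible proteasome subunit also called LMP7, had 4.31 and 4.44, a mean of 4.37 ± 0.09, with linear values of 19.9 and 21.6; it lies from 32840717 to 32844703 on the minus strand. Neither library brought the pair near each other. PSMB9, the inducible subunit also called LMP2, had no row. In GENCODE 29 it lies on the plus strand from 32844136 to 32859585. There it shares 174 exonic bases with PSMB8-AS1 on that strand and 139 with PSMB8 on the other. The RefSeq gene of PSMB9 starts at 32854192, beyond the ends of PSMB8 and PSMB8-AS1, so these overlaps rest on the GENCODE model.

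**Figure D1:**
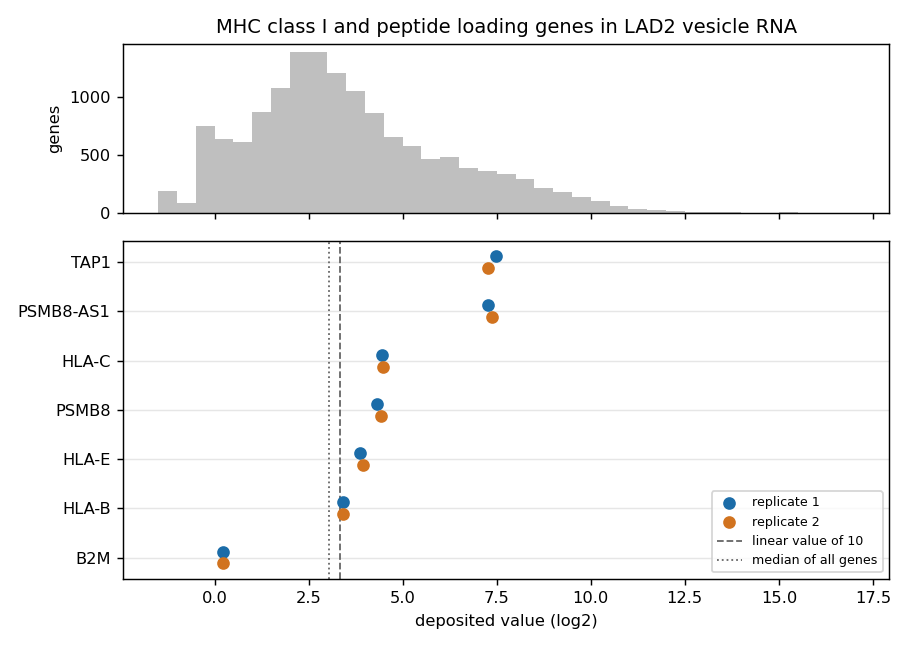
The upper panel counts all genes by mean deposited log2 value, and the lower panel gives the 7 genes with a value, 1 point per library, with lines at a linear value of 10 and at the median of all genes. TAP1 and PSMB8-AS1 lie above 7 in both libraries, HLA-C, PSMB8, HLA-E and HLA-B between 3.41 and 4.48, and B2M at 0.23.

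Of the 7 genes with a value, 6 were detected, beside 45.5% of all genes with a value, and B2M was not. The median of the 7 was 4.37, beside 3.06 over all genes, and exceeded 68.6% of them. Their linear values made up 0.0228% of the summed linear values in replicate 1 and 0.0210% in replicate 2.

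Levels of different genes are compared per length, as the log2 of the linear value per kilobase of annotated exons. On this scale PSMB8-AS1 led with 6.34 over 1951 exonic bases, and TAP1 followed with 5.11 over 4805. HLA-C had 3.13, PSMB8 2.79, HLA-E 2.33 and HLA-B 1.80 log2 units per kilobase, and B2M was last at -2.37. Every gap between neighbours in this order, from 0.34 between HLA-C and PSMB8 to 4.18 between HLA-B and B2M, was larger than the SD of either gene and the spread of all genes at their level, which are shrunken. The order depended on the gene models. With the longest transcript in place of all exons HLA-B came above HLA-E, and without division by length TAP1 came above PSMB8-AS1. In GENCODE 29 the HLA-B model runs from 31269491 to 31357188, while the RefSeq gene runs from 31353875 to 31357179. The GENCODE model overlaps a part of HLA-C, which starts at 31268749, and shares 35 exonic bases with it.

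The largest contrast among the 9 genes was between HLA-B and the gene opposite to it. ENSG00000271581, an unprocessed pseudogene on the plus strand (chromosome 6, 31356647 to 31357637), had 11.36 in replicate 1 and 10.79 in replicate 2, a mean of 11.08 ± 0.40. It ranked 95 of the 14467 genes. It shares 542 exonic bases with HLA-B, which are 54.7% of its own exons and 17.8% of those of HLA-B. The gap to HLA-B was 7.95 log2 units in replicate 1 and 7.38 in replicate 2, a mean of 7.66 or 203-fold, and it was 9.29 log2 units per kilobase. The gap exceeded the SD of either gene in both libraries. Which part of either value comes from RNA of the shared bases was not tested.

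HLA-F and HLA-G, heavy chain genes outside the 9, also have facing genes and were looked at after their values were seen. HLA-F, a less variable relative, had 5.48 and 5.40, a mean of 5.44 ± 0.05. The facing ENSG00000225864 had 6.58 and 6.74, a mean of 6.66 ± 0.11, over 701 shared bases, while HLA-F-AS1, which shares 535 bases, stood lower at 1.56 ± 0.02. HLA-G had no row, and HCG4P8, which faces it, had 0.90 ± 0.00. The facing gene was thus higher for 1 of 2 at HLA-F, by 1.22 log2 units, and low at HLA-G.

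At the PSMB8 locus the facing RNA was the higher of the pair as well. PSMB8-AS1 shares 618 exonic bases with PSMB8, 20.6% of the exons of PSMB8 and 31.7% of its own, and the gap was 2.94 log2 units in replicate 1 and 2.93 in replicate 2. The mean gap of 2.93, or 7.65-fold, became 3.55 log2 units per kilobase. Against TAP1 the order changed with the library: PSMB8-AS1 was 0.23 lower in replicate 1 and 0.09 higher in replicate 2, so the pair did not differ beyond the spread of the libraries, while per kilobase PSMB8-AS1 was 1.23 log2 units higher. Of the 50-base words of PSMB8-AS1, 45.0% occur on the opposite strand of another gene.

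The bases that TAP1 and PSMB8-AS1 share include coding sequence. In the last coding exon of TAP1, exon 11, 204 coding bases face exons of PSMB8-AS1, and they are shown, on the strand of TAP1, as the stretch where a read without a known strand could belong to either gene.
TAP1 exon 11, chr6:32845582-32845785, minus strand: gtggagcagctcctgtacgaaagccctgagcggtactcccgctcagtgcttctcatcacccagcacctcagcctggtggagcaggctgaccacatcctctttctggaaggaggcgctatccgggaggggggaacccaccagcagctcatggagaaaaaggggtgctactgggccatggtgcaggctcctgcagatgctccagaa
No coding base of the principal PSMB8 transcript faces PSMB8-AS1, so the bases those genes share lie in non-coding or alternative exons of PSMB8.

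**Figure D2:**
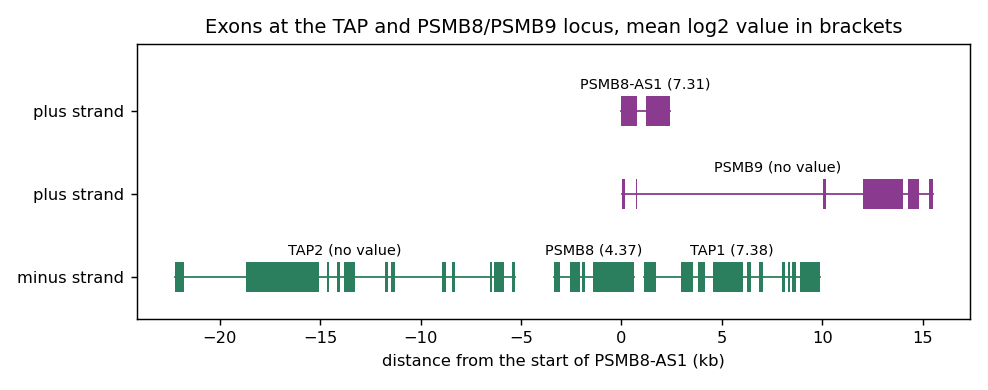
Exons of TAP2, PSMB8, PSMB9, PSMB8-AS1 and TAP1 drawn to scale as distance from the start of PSMB8-AS1, with each gene on its strand and its mean log2 value where it has one. PSMB8-AS1 reaches into exons of PSMB8 on one side and of TAP1 on the other.

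Across all protein-coding genes with a facing gene and both values, the facing gene was higher in 63.0% of 3211 pairs, and in 67.3% per kilobase. Of the 3 coding members with such a pair, the facing gene was higher for HLA-B and PSMB8 and not for TAP1, and per kilobase it was higher for all 3. With so few pairs these counts are not far from the background, and what stands out at HLA-B is the size of the gap. Over the 49 listed class I heavy chain, loading and immunoproteasome genes, 16 of the 22 with a facing annotated gene had a value, 72.7%, against 9 of the 27 without, 33.3%. Over all protein-coding genes these shares were 61.4% and 32.4%, with median values of 3.95 and 2.33. In the 14 listed pairs with both values the facing gene was higher in 9, with a median gap of 1.95 log2 units.

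**Figure D3:**
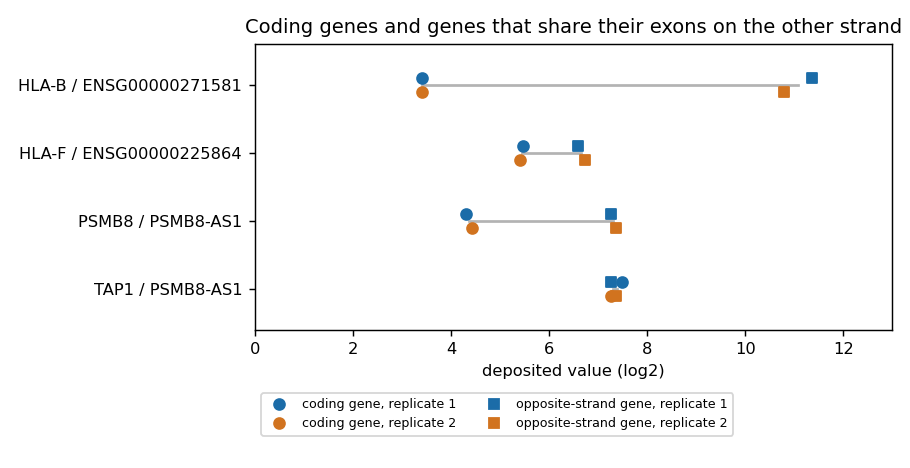
Deposited log2 values in each library of 4 coding genes (circles) and of the gene that faces each on the other strand (squares), with a grey line between the means. The mean gap is 7.66 log2 units at HLA-B, 2.93 at PSMB8, 1.22 at HLA-F and -0.07 at TAP1.

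Between the libraries the genes moved little. None of the 7 differed 2-fold, beside 0.0899% of all genes (13 of 14467). TAP1 was lower in replicate 2 by 0.22 log2 units, or 1.16-fold, the largest difference among them. PSMB8 was 0.12 and PSMB8-AS1 0.11 log2 units higher in replicate 2, and the others differed by 0.06 or less. In all, 2 genes were higher in replicate 1 and 5 in replicate 2, with a median difference of 0.04. The SD of TAP1, PSMB8 and HLA-E exceeded the spread of all genes at their level, with 0.153 against 0.149 for TAP1. Scaled to the same linear sum, 5 of the 7 were higher in replicate 1. TAP1 kept its direction, and so did PSMB8 and PSMB8-AS1, under the deposited values, median centring and equal sums.

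**Figure D4:**
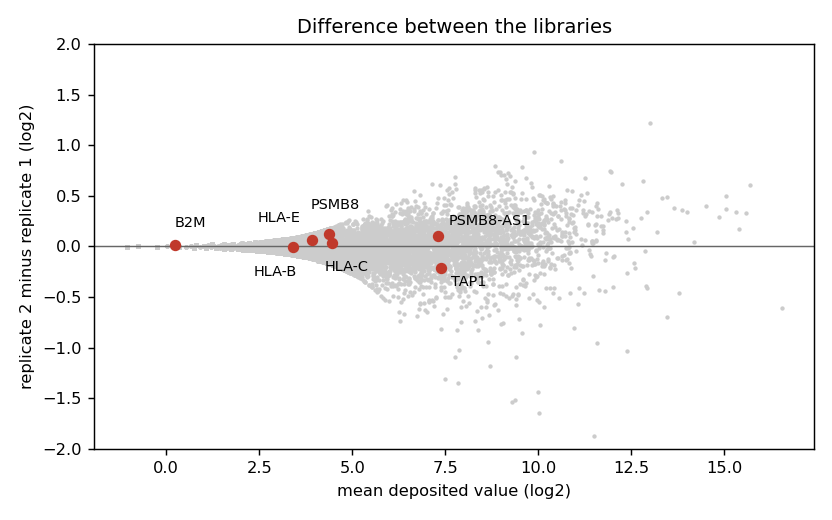
Difference between the libraries (replicate 2 minus replicate 1, log2 units) against the mean log2 value for all genes in grey, with the genes named here marked. All 7 marked genes lie within 0.22 log2 units of 0, and the cloud widens with the mean.

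Promoter sequence bears on the class I genes because their control elements are well known: an interferon response element, an NF-kappaB site and a module that ends in a CCAAT box. In the 250 bases upstream of the RefSeq starts (GRCh38.p14), 4 motifs were searched on both strands: the core of the interferon element AANNGAAA, the X2 or CRE core TGACG, the CCAAT box, and the NF-kappaB motif. The 10 windows cover 8 of the genes, since PSMB8 and TAP1 have 2 starts each and HLA-E none in the table. Over 35116 promoters the shares holding each motif were 20.3%, 21.2%, 32.0% and 9.96%, and 21 promoters, 0.0598%, held all 4. Windows of B2M, HLA-B and HLA-C were among those 21. The windows of B2M, the gene of lowest value, and HLA-B, the gene with the widest gap to its facing gene, are shown with the motif matches in capitals.
B2M, chr15:44711267-44711516, plus strand: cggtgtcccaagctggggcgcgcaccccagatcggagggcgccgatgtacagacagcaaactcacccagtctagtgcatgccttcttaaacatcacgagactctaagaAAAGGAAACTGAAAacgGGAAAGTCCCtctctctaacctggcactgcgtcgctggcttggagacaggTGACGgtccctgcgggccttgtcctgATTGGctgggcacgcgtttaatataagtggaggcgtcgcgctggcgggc
HLA-B, chr6:31357180-31357429, minus strand: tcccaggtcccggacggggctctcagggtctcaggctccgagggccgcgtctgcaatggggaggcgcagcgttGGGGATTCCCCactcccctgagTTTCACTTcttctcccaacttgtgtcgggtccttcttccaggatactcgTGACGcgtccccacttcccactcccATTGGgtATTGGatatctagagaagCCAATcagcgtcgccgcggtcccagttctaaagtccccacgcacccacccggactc
In the remaining windows, that of an upstream TAP1 start held 3 kinds of motif. Those of TAP2, PSMB9 and PSMB8-AS1 held 2, and the second TAP1 window held none. The upstream TAP1 window (chr6:32853705-32853954) and the PSMB9 window (chr6:32853942-32854191) overlap, and their CCAAT matches are the same bases. PSMB8 held 1 kind at 1 start and none at the other. All 250 bases of the HLA-B window lie inside an exon of the facing ENSG00000271581, and all 250 of the PSMB8-AS1 window inside exons of PSMB8. A match is a run of letters and no measured site, and B2M, with all 4 kinds, had the lowest value of the genes.

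Within 50 kb of the genes, GENCODE 29 places 32 other genes, of which 9 had a value and 1, ENSG00000271581, stood above TAP1. MICA, a stress-induced ligand of the NKG2D receptor next to HLA-B, had 6.43 and 6.70, a mean of 6.57 ± 0.19. The non-coding RNA HCP5 had 5.28 ± 0.18, the pseudogene DHFRP2 3.63 ± 0.07, and a Y RNA 1.92 ± 0.02. Near HLA-E, GNL1 stood at -0.24 ± 0.00, and beside TAP1 the pseudogene PPP1R2P1 at 3.01 ± 0.05. Near B2M, SPG11 had 6.08 ± 0.11 and TRIM69 0.35 ± 0.01. The neighbours thus spanned both low and high values and shared no common level with the genes they flank.

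The wider class I pathway was described by lists. Of 23 heavy chains and relatives 8 had a value and 6 were detected, with a median of 4.18. MICA was the highest of these, and HLA-F, HLA-C and HLA-E were among those detected. In the list of the light chain and loading factors, 12 of 19 had a value, 7 were detected, and the median was 4.47. ERAP1, which trims peptides in the endoplasmic reticulum, led with 10.63 ± 0.07, and SYVN1, a ubiquitin ligase of that compartment, had 8.11 ± 0.27. TAPBP, which encodes tapasin and bridges TAP to the heavy chain, had 6.45 ± 0.05, and its relative TAPBPL 6.36 ± 0.00. The loading chaperones were lower: CALR had 4.42 ± 0.07, PDIA3 2.64, CANX 0.76 and HSPA5 -0.77. CALR is faced by ENSG00000267458 at 10.40 ± 0.33, while ERAP1 is itself the higher of a pair with CAST at 5.08.

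Of 7 immunoproteasome subunits and activators 5 had a value and 4 were detected, with a median of 4.21. PSMB10, the remaining inducible subunit, had 4.31 ± 0.02, beside 4.37 ± 0.09 for PSMB8, and per kilobase PSMB10 had 3.42 and PSMB8 2.79. The activator subunit PSME2 had 4.21 ± 0.07 and PSME1 -0.24. In the constitutive core 7 of 14 genes had a value and 3 were detected: PSMB7 at 11.48 ± 0.02, PSMA3 at 6.50 ± 0.35 and PSMA7 at 5.77 ± 0.01. The median there was 3.06, equal to that of all genes.

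Among 17 transcription regulators of class I genes, 12 had a value, 6 were detected and the median was 3.44. IRF1, an interferon-induced activator, had 8.17 ± 0.25 and the facing IRF1-AS1 8.28 ± 0.03. NLRC5, the class I transactivator, had no row. Of 40 interferon response genes 25 had a value and 11 were detected, with a median of 2.55, below that of all genes. IFITM3, IFI35, OAS3 and IRF7 lay between 4.90 and 5.50.

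Class II presentation genes had a value in 5 of 17 cases. Their transactivator CIITA led with 8.70 ± 0.16, HLA-DMA had 4.99 ± 0.02 and HLA-DPA1 4.63 ± 0.06, and the median was 4.63. Receptors of class I had a value in 3 of 19 cases, among them CD160 at 4.71. No gene of any list differed 2-fold between the libraries.

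**Figure D5:**
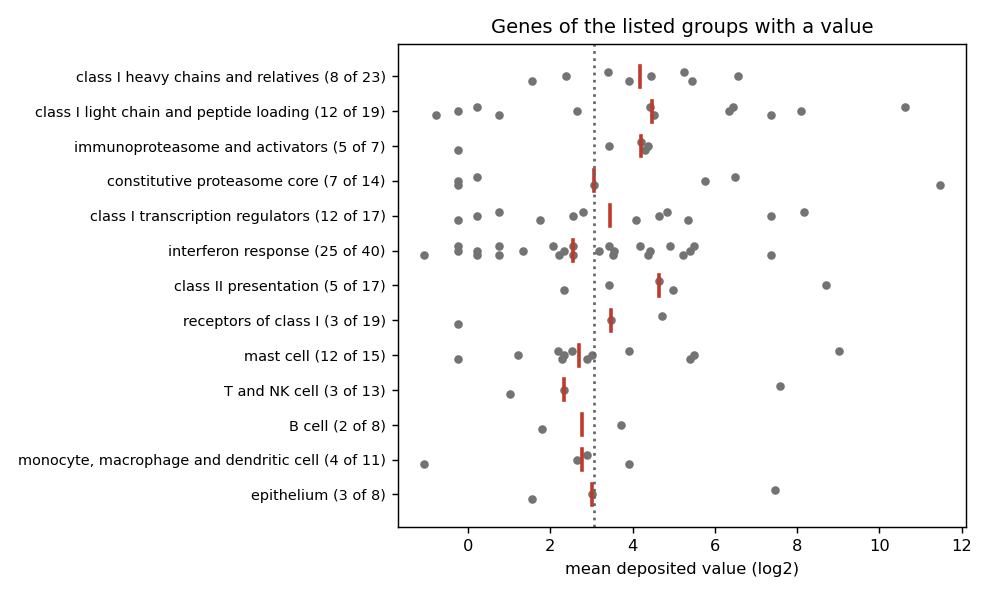
Mean log2 value of every gene with a value in each list, with a red bar at the list's median and, in brackets, how many of the listed genes have a value; the dotted line is the median of all genes, 3.06. The loading list holds both ERAP1 at 10.63 and HSPA5 at -0.77.

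The labelled cell type was checked against its markers. Of 15 mast cell markers 12 had a value and 4 were detected, 33.3% of those with a value, beside 45.5% of all genes. The median of the 12 was 2.71, beside 3.06 over all genes. The detected share was also 33.3% for the T and natural killer cell and the epithelium markers with a value. It was 50% for B cell and 25% for myeloid markers with a value. Among markers with a value, detection thus did not set the mast cell markers apart. The share of listed markers with a value was 80% for mast cells, beside 42.2% of annotated protein-coding genes. It was 23.1% for T and natural killer cells, 25% for B cells, 36.4% for myeloid cells and 37.5% for epithelium. The 4 detected mast cell markers were GATA2, a transcription factor, at 9.03 ± 0.19, SIGLEC6 at 5.50 ± 0.01, CTSG at 5.40 ± 0.06 and MRGPRX2 at 3.92 ± 0.08. SIGLEC6 is faced by ENSG00000268777 at 12.60 ± 0.15. The remaining mast cell markers with a value, among them the receptor KIT at 2.19 ± 0.01, were not detected. FCER1A, FCER1G and MITF had no row. Of the other markers, T and natural killer cells had a value for 3 of 13 with 1 detected (CD247, 7.57 ± 0.09), B cells for 2 of 8 with 1 detected, myeloid cells for 4 of 11 with 1 detected, and epithelium for 3 of 8 with 1 detected (VIL1, 7.47 ± 0.24). Whether RNA of other cells has a part in the class I values was not tested.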

How the data were processed

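The authors deposited 1 log2 value per gene and library for 2 libraries of LAD2 vesicle RNA. Per the submitters' processing notes, FastQC 0.11.5, STAR 2.6.1a and hg38 were used. The transform and the strand setting of the counting are not stated there, and values shrink towards each other at low levels. No column was left unassigned.

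Gene models came from GENCODE 29 on GRCh38, the same build, and promoters from RefSeq GRCh38.p14. Means and SDs were taken on the log2 scale, and per-kilobase levels use the union of annotated exons. With 1 group there was no test; members and lists are set beside all genes. Code was tested on simulated data. The 9 genes and the lists were chosen with earlier results of these data known. Named genes are the 9, genes sharing their exons or lying within 50 kb, up to 5 highest genes per list and the 3 genes nearest to TAP1; others were chosen after their values were seen, and a few genes that the rule names are not reported here. Python 3.11.15, numpy 2.4.6, pandas 2.3.3 and matplotlib 3.10.9 were used.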

Additional observations from a re-analysis of the deposited data

How the results depend on the processing

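With a detection threshold of a linear value of 20 or 50 in place of 10, 3 and 2 of the 7 genes with a value were detected instead of 6, and at 5 there were 6. The median gene stood above 68.6% of all genes, 30.9% of detected genes, 71.5% of protein-coding genes and, per length, 61.9% of genes. Leaving out either replicate gave 67.8% and 69.4%. The facing gene was higher for 2 coding members, and for 3 per length and without replicate 1. The median difference between the libraries was 0.04 log2 units as deposited and -0.04 after scaling to equal linear sums; the cause was not tested. No paired analysis was possible because both libraries belong to 1 group. Shrunken values, an unknown read depth and an unknown strand setting of the counting limit what low values such as that of B2M can show.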

Other observations

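Class I pseudogenes of the chromosome 6 region also had values, and they were looked at after the values were seen. HLA-L had 5.72 ± 0.07 on the log2 scale, HLA-K 2.07, HLA-T 1.56 and HLA-U -0.77. HCG4B, a non-coding gene of the same region, had 5.24 ± 0.04.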
